A study of Mus musculus with 16 samples.

Results

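The genes described here encode the laminins, the other core glycoproteins and proteoglycans of the basement membrane, and the receptors that bind them. They were taken by name from the deposited tables: every laminin chain gene (Lama, Lamb and Lamc), every integrin α and β chain gene (Itga and Itgb), and Nid1, Nid2, Hspg2, Agrn and Dag1. Genes whose names only resemble these, Itgb1bp1, Itgb1bp2, Itgb3bp and Itgbl1, were left out. The rule took 44 of the 28432 loci in the tables, under 43 symbols because Itgae stands on 2 loci. They were 11 laminin chains, 19 integrin α loci, 9 integrin β loci and 5 others.

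RNA was measured in mouse embryoid bodies, floating clusters of differentiating embryonic stem cells, on day 6 of SFEBq culture, a serum-free method that steers the cells towards neural and eye tissue. All cells carried GFP knocked in at Rx, an eye field gene, and all grew in GMEM with 5% KSR. Every group also received 2% Matrigel on day 1, a basement membrane extract from a mouse tumour that is itself rich in laminin, so that no group lacked an added matrix. The 4 groups were WT cells, a Wdr5 KO (clone #3) without rescue, and that KO with human WDR5 induced by doxycycline from the time labelled T12h (early rescue) or T48h (late rescue). Wdr5 encodes a core subunit of the MLL complexes, which methylate histone H3 at lysine 4. The KO and both rescues thus go back to 1 clone, and WT received no doxycycline per the labels.

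Each group had 2 biological duplicates per the labels, here libraries a and b, each the sum of 2 technical columns, with 32476666 to 65687442 counts in named genes. Wdr5 itself read 186 and 186 CPM (counts scaled to library size) in WT, 32.5 and 28.4 in KO cells, 329 and 337 in the early rescue and 280 and 294 in the late rescue, so the 2 KO libraries were the lowest. Whether reads of the human transgene were counted at the mouse locus was not tested. The labelled tissue was also looked up in its markers. The 12 eye field and neuroepithelial genes summed to 2513 to 2623 CPM in WT and 2788 to 2860 in the early rescue, but to 388 to 397 in the KO and 246 to 264 in the late rescue.

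A laminin is a cross-shaped trimer of an α, a β and a γ chain, and it polymerises into the sheet on which a basement membrane is built. Nidogens and perlecan tie this sheet to the collagen IV network, and cells hold it through integrins, which are αβ heterodimers, and through dystroglycan. In the early mouse embryo the trimer of Lama1, Lamb1 and Lamc1 chains is laid down by extraembryonic endoderm and under the epiblast, where it is needed for the epiblast to polarise. Integrins of the α3, α6 and α7 chains bind laminin, those of α5, α8 and αV bind ligands with the RGD motif such as fibronectin and vitronectin, α1 and α2 bind collagen, and α4 and α9 bind fibronectin or other matrix and cell surface ligands. The β2 integrins belong to leukocytes.

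Integrin β chains differ at their cytoplasmic end, where NPxY motifs bind talin and kindlin, the proteins that activate integrins and join them to actin. The last 31 codons, stop included, of 3 β chain genes that moved differently are shown 5′ to 3′ with the NPxY codons in capitals, since these genes recur in the results below (GENCODE M21 transcripts, mm10). They lie at chr8:128726160-128732088 (plus strand, across 2 exons) for Itgb1, chr16:33948660-33948752 (plus strand) for Itgb5 and chr12:119163117-119163209 (minus strand) for Itgb8.
Itgb1: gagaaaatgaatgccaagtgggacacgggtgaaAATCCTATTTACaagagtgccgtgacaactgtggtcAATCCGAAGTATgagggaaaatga
Itgb5: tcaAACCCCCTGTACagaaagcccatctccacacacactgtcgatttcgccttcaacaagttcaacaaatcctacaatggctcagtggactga
Itgb8: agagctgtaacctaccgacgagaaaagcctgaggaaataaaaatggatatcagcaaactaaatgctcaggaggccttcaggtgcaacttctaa
In these stretches Itgb1 had 2 such motifs, Itgb5 had 1 and Itgb8 had 0.

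Of the 43 symbols, 28 reached 5 CPM in at least 1 group and 15 stayed below it in every group. After the filter on low counts 39 loci were tested, with edgeR's quasi-likelihood test and Benjamini-Hochberg adjustment over 16130 genes, and a gene is said to have risen or fallen at an adjusted p under 0.05. Fold changes are given as log2 values ± an approximate SE, the absolute log2 value divided by the square root of the test's F statistic. All adjusted p-values come from this test. With 2 libraries per group and 4 residual degrees of freedom, p-values measure only the spread between these duplicates, and nothing in the labels says whether they were separate cultures. The comparisons share libraries, the KO in particular, so their values are set side by side and are not independent of each other.

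In the KO against WT, 26 of the 39 tested members rose and 2 fell, where 31.7% of all genes tested rose and 32.4% fell. Past 2-fold as well, 22 rose and 1 fell, beside 17.9% and 15.7% of all genes. The median log2 fold change was 1.59 over the members and 0.00 over all genes. In the early rescue against the KO, 2 members rose and 27 fell (32.8% and 32.1% of all genes), and past 2-fold 1 rose and 21 fell (15.2% and 19.4%). In the late rescue against the KO, 13 rose and 17 fell (34.2% and 33.2%), and past 2-fold 9 rose and 13 fell (16% and 20.8%). The rescues differed from each other in 30 members, 22 higher and 8 lower in the late rescue (24.9% and 25.3%), of which 17 and 7 passed 2-fold (11% and 11.9%). Against WT, the early rescue had 9 members higher and 2 lower (7.91% and 6.12%), and the late rescue 19 higher and 7 lower (23.9% and 23.4%). The split between the early rescue and WT moved to 9 higher and 4 lower with RLE or upper-quartile scaling, 10 and 5 with DESeq2 and 10 and 6 without the filter on low counts. The 2 lower members were Itga1 (-1.17) and Itgb7 (-2.19), and both calls were lost with limma, by voom as well as on log2 FPKM. In the late rescue against WT, upper-quartile scaling moved the split over all genes to 3054 higher and 4794 lower, and that of the members to 18 and 7. Since low members entered the test only through the groups in which they were detected, these counts describe the tested members only. Among the 23 members with a mean of 5 CPM or more over all libraries, 17 rose and 2 fell in the KO against WT.

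**Figure D1:**
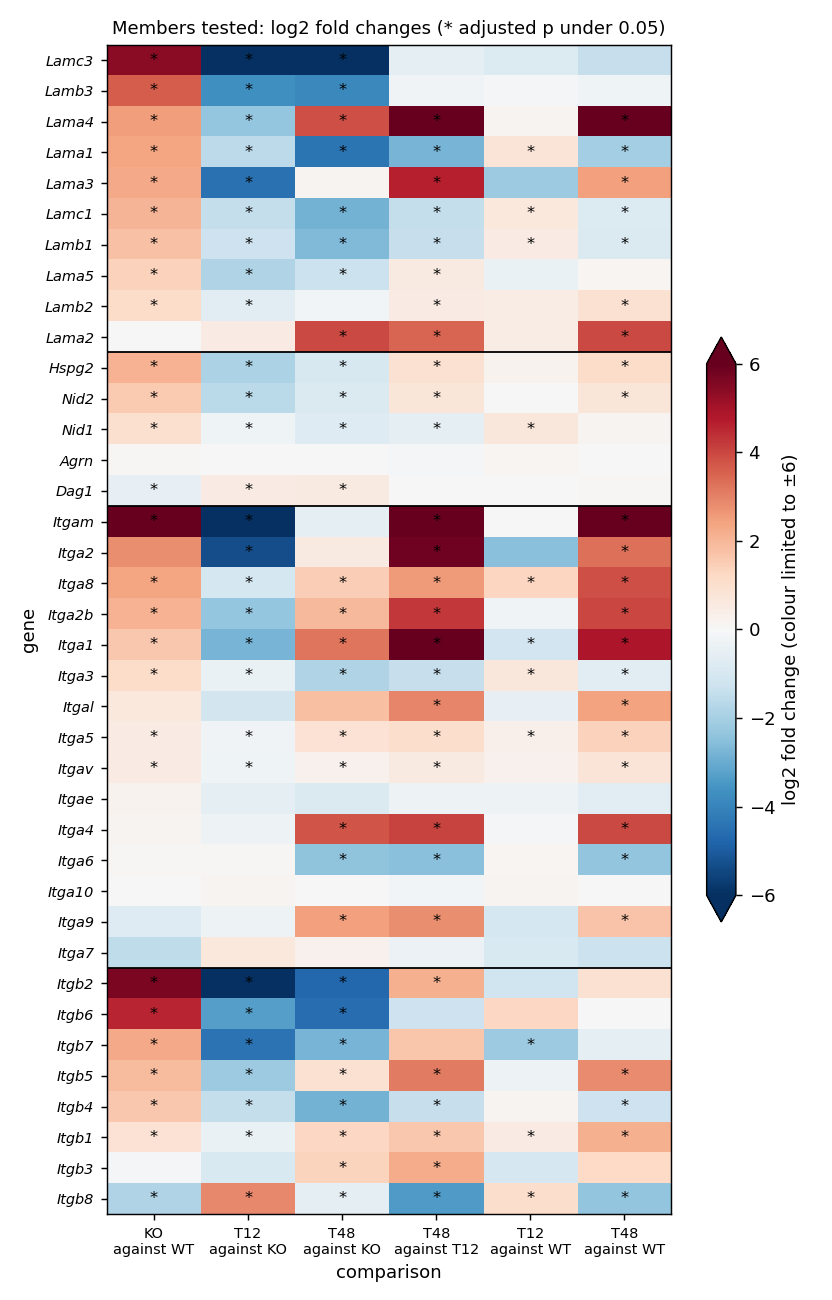
Log2 fold changes (colour, limited to ±6) of 38 of the 39 tested members (rows, grouped from top to bottom as laminin chains, other basement membrane genes, integrin α and integrin β genes, each ordered by the KO against WT) in 6 comparisons (columns; T12 is the early and T48 the late rescue); an asterisk marks an adjusted p under 0.05. In the first column 9 of the 10 laminin chains drawn are marked as higher and none as lower.

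The abundant trimer chains Lama1, Lamb1 and Lamc1 rose together in the KO and were lowest in the late rescue. Lama1 (chr17:67697259-67822647, mm10) read 949 and 997 CPM in WT, 4811 and 5099 in KO cells, 1592 and 1735 in the early rescue and 208 and 269 in the late rescue. No 2 groups overlapped: the KO libraries were the highest and those of the late rescue the lowest. Its log2 fold change was 2.35 ± 0.10 in the KO against WT (adjusted p = 5.6e-10), -1.57 ± 0.10 in the early rescue against the KO and -4.38 ± 0.11 in the late rescue against the KO (adjusted p = 5.0e-12). The early rescue stayed 0.77 ± 0.10 above WT (adjusted p = 2.2e-04), while the late rescue was below WT, at -2.03 ± 0.10.

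Lamc1 (chr1:153218922-153332786), the common γ chain, followed the same order of groups, with 936 and 910.1 CPM in WT, 3749.6 and 3928 in KO cells, 1339 and 1553 in the early rescue and 529 and 529 in the late rescue. It rose by 2.06 ± 0.08 in the KO against WT and in the late rescue it lay at -0.80 ± 0.07 against WT (adjusted p = 1.2e-06). Lamb1 (chr12:31265234-31329644), the common β chain, read 918 and 901 CPM in WT, 3029 and 3129 in KO cells, 1232 and 1348 in the early rescue and 482 and 509 in the late rescue. Its change in the KO against WT was 1.76 ± 0.07, and in the late rescue against the early rescue -1.38 ± 0.07. For all 3 chains every pair of groups differed past the threshold. The late rescue differed more from WT in Lama1 (-2.03 ± 0.10) than in Lamc1 or Lamb1 (-0.88 ± 0.07); the difference between the chains was not tested.

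Per length the 3 chains were the highest of all members in the KO and in WT, but their order depended on the length scale. In the KO, FPKM (fragments per kilobase of transcript, scaled to sequencing depth, mean ± SD, n = 2) were 481 ± 13.7 for Lamb1, 465 ± 14.1 for Lamc1 and 460.2 ± 22.3 for Lama1, whose ranges of 1 SD overlapped. On a second length scale, counts per kilobase of annotated exon scaled to library size, they were 310.5 ± 7.09 for Lamb1, 464 ± 15.2 for Lamc1 and 512 ± 21.0 for Lama1, so that Lamb1 was the lowest of the 3. In WT the FPKM were 135 ± 2.16 for Lamb1, 111 ± 3.59 for Lamc1 and 85.8 ± 2.67 for Lama1. The second scale gave 91.7 ± 1.199, 112 ± 2.25 and 101 ± 3.55 in that order of genes. Lamb1 was again the lowest there. Lama1 had dropped to rank 11 of the members on both scales in the late rescue, at 20.9 ± 3.75 FPKM. Lamc1 stayed within the first 3 there on both scales, and Lamb1 ranked 2 by FPKM and 5 on the second scale.

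**Figure D2:**
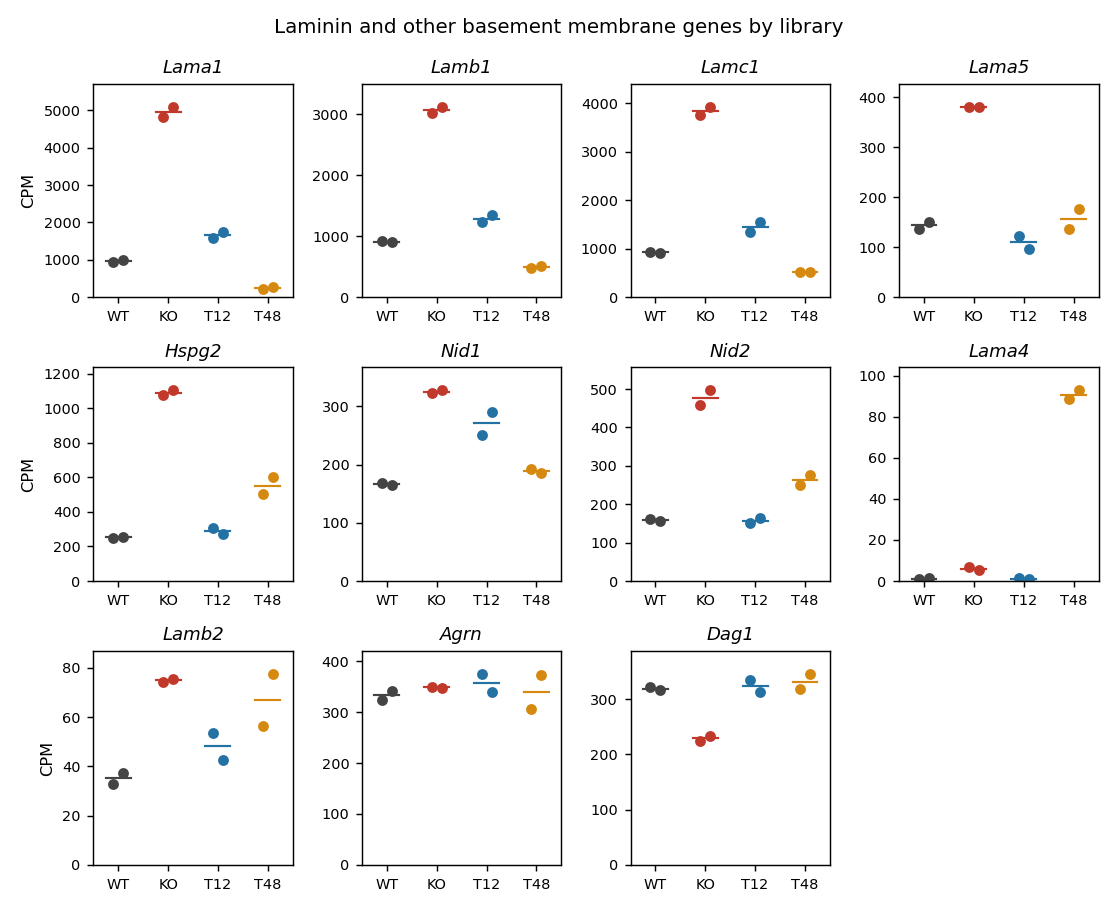
CPM of 11 laminin and other basement membrane genes in each of the 8 libraries (points; 2 per group, with T12 the early and T48 the late rescue; bars at the group mean, linear axes from 0, a separate scale per gene). Lama1, Lamb1 and Lamc1 are highest in the KO and lowest in the late rescue, Lama4 is high in the late rescue alone of the 4 groups, and Agrn lies between 306 and 374 CPM throughout.

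The other α chains made up more of the laminin pool in the late rescue. Lama5 (chr2:180176373-180225859), the α chain of most epithelial and vascular basement membranes, read 137 and 150.1 CPM in WT, 379.6 and 381 in KO cells, 123 and 96.1 in the early rescue and 137 and 177 in the late rescue. It rose in the KO against WT (1.41 ± 0.12, adjusted p = 4.0e-07) and fell in both rescues against the KO, but the difference between the rescues (0.52 ± 0.12) was lost without early rescue library b or without late rescue library b, at 0.31 each. The early rescue lay at -0.39 against WT, which was not called but passed the threshold in 10 of 20 alternative analyses. Lama4 (chr10:38965515-39110188), a chain of endothelial, muscle and mesenchymal basement membranes, read 0.915 and 1.25 CPM in WT, 6.78 and 5.40 in KO cells, 1.61 and 0.771 in the early rescue and 88.7 and 92.9 in the late rescue. Its libraries of the late rescue stood far above all others, at 6.22 ± 0.26 against the early rescue (adjusted p = 3.2e-10) and 3.89 ± 0.22 against the KO. Lama2, the α chain of muscle and nerve, read 6.05 and 7.72 CPM in the late rescue and 0.351 to 0.705 in the other 6 libraries, and rose there against the early rescue by 3.49 ± 0.44 (adjusted p = 2.2e-05).

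As a share of the summed FPKM of all Lama genes (mean ± SD, n = 2), Lama1 made up 88.9% ± 0.294 in WT, 93.8% ± 0.259 in KO cells and 94.6% ± 1.1996 in the early rescue, but 45.5% ± 1.98 in the late rescue. There Lama4 reached 27.9% ± 2.96 and Lama5 24.9% ± 0.975, against 0.157% ± 0.0277 and 10.9% ± 0.271 in WT. On the second length scale the late rescue shares were 52.8% for Lama1, 16.3% for Lama4 and 29.5% for Lama5, so the order of Lama4 and Lama5 depended on the scale. The summed FPKM of the α chains was 94.2 and 98.9 in WT, 475 and 507 in the KO, 149.8 and 159.7 in the early rescue, and 41.3 and 50.2 in the late rescue. Among the β chains Lamb1 held 97.3% ± 0.0242 in KO cells and 88.0% ± 1.89 in the late rescue, where Lamb2 held 11.9% ± 1.93. The second scale gave Lamb1 82.0% ± 2.67 and Lamb2 17.9% ± 2.71 in the late rescue.

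Further laminin chains were lower and rose in the KO. Lamb2, the β chain of neuromuscular and kidney basement membranes, read 32.9 and 37.3 CPM in WT, 74.2 and 75.5 in KO cells, 53.5 and 42.7 in the early rescue and 56.4 and 77.4 in the late rescue. It rose in the KO against WT by 1.09 ± 0.14, and its difference between the rescues, 0.48 ± 0.14, was lost without early rescue library b (0.28) or late rescue library b (0.22). Lamb3 went from 0.444 and 0.623 CPM in WT to 6.62 and 6.53 in KO cells (3.62 ± 0.49), and Lama3 from 0.360 and 0.386 to 2.44 and 1.19 (2.28 ± 0.59, not called without KO library a, 1.65). In the late rescue Lama3 read 2.04 and 2.11 CPM, within the range of the KO libraries. Lamc3, a γ chain, had 0 and 5 counts in WT and 243 and 104 in the KO, or 3.56 and 2.81 CPM, and at most 3 counts in any rescue library.

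The proteins that link laminin to the rest of the basement membrane did not all follow it. Hspg2 (chr4:137468769-137570630), which encodes perlecan, read 251 and 258 CPM in WT, 1075 and 1104 in KO cells, 309 and 272 in the early rescue and 503 and 600.1 in the late rescue. The early rescue libraries lay just above WT without passing the test (0.19 ± 0.09, adjusted p = 0.171), and those of the late rescue lay between the early rescue and the KO. Nid2 (chr14:19751265-19811787), the second nidogen, had 161 and 156 CPM in WT, 459 and 497 in KO cells, 149.9 and 165 in the early rescue and 249.96 and 275 in the late rescue, which is the same order of groups apart from the overlap of WT and the early rescue. Its increase in the KO was 1.59 ± 0.08 (adjusted p = 1.8e-09).

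Nid1 (chr13:13437551-13512269), which encodes the nidogen that binds the γ chain of laminin, read 168 and 166 CPM in WT, 323 and 328 in KO cells, 251 and 290.3 in the early rescue and 192 and 186 in the late rescue. Unlike Nid2 it stayed above WT in the early rescue (0.70 ± 0.08, adjusted p = 8.0e-05) and was lower in the late rescue than in the early rescue (-0.52 ± 0.08). Its small decrease from the KO to the early rescue, -0.26 ± 0.08, was lost without early rescue library a (-0.14). Agrn, the heparan sulfate proteoglycan agrin that links laminin to dystroglycan, passed the test in none of the 6 comparisons and ranged from 306 to 374 CPM. Its smallest adjusted p was 0.513, in the early rescue against WT, but leaving out late rescue library b took the difference between the rescues past the threshold (-0.23, adjusted p = 0.0443). Dag1 (chr9:108204634-108263958), which encodes dystroglycan, was the only one of these 5 to fall in the KO, with 322 and 316 CPM in WT, 225 and 233 in KO cells, 335 and 313 in the early rescue and 319 and 345 in the late rescue. The KO libraries lay below all 6 others (-0.48 ± 0.07 against WT, adjusted p = 4.9e-05), and both rescues were within 0.06 of WT on the log2 scale.

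Of the laminin-binding integrin chains, Itga6 and Itga3 were both lowest in the late rescue but differed in the KO. Itga6 (chr2:71745616-71858416), the most abundant α chain in WT, read 155 and 163 CPM in WT, 163 and 166 in KO cells, 165 and 180.1 in the early rescue and 26.1 and 34.9 in the late rescue. The first 3 groups differed by at most 0.12 on the log2 scale and were not called against each other, and the late rescue was lower by 2.50 ± 0.11 than the early rescue (adjusted p = 8.3e-10). Itga3, which pairs with Itgb1, read 34.7 and 39.97 CPM in WT, 81.9 and 77.8 in KO cells, 61.1 and 58.2 in the early rescue and 20.2 and 25.8 in the late rescue. It rose in the KO (1.10 ± 0.12, adjusted p = 3.3e-06) and was below WT in the late rescue (-0.70 ± 0.12, adjusted p = 4.0e-04). Itgb4, the β partner of Itga6 in hemidesmosomes, had 2.91 and 2.37 CPM in WT, 7.96 and 8.12 in KO cells, 3.07 and 2.82 in the early rescue and 0.899 and 1.32 in the late rescue, and was called in every comparison but that of the early rescue with WT. Itga7, the laminin receptor of muscle, stayed at or below 1.19 CPM and was not called in any comparison.

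Itgb1 (chr8:128685654-128733200), the β chain shared by most matrix-binding integrins, was highest in the late rescue. It read 349.9 and 315 CPM in WT, 621 and 600.0 in KO cells, 453 and 488 in the early rescue and 1504 and 1422 in the late rescue, with no overlap between any 2 groups. The log2 fold change of the late rescue was 1.64 ± 0.07 against the early rescue (adjusted p = 7.7e-10) and 2.14 ± 0.08 against WT. Per length it ranked first of all members in the late rescue, at 304 ± 13.4 FPKM. The KO was 0.88 ± 0.07 and the early rescue 0.50 ± 0.07 above WT. Genes of chromosome 8, where Itgb1 lies, were shifted as a whole in all groups of the KO clone. Their median log2 fold change over 852 tested genes was 0.49 in the early rescue against WT, against -0.02 for the other chromosomes, 0.49 against -0.02 in the KO against WT, and 0.39 against -0.06 in the late rescue against WT. The part of this shift in the Itgb1 differences from WT was not tested; between the rescues the chromosome 8 median was -0.09 and the log2 fold change of Itgb1 was 1.64.

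**Figure D3:**
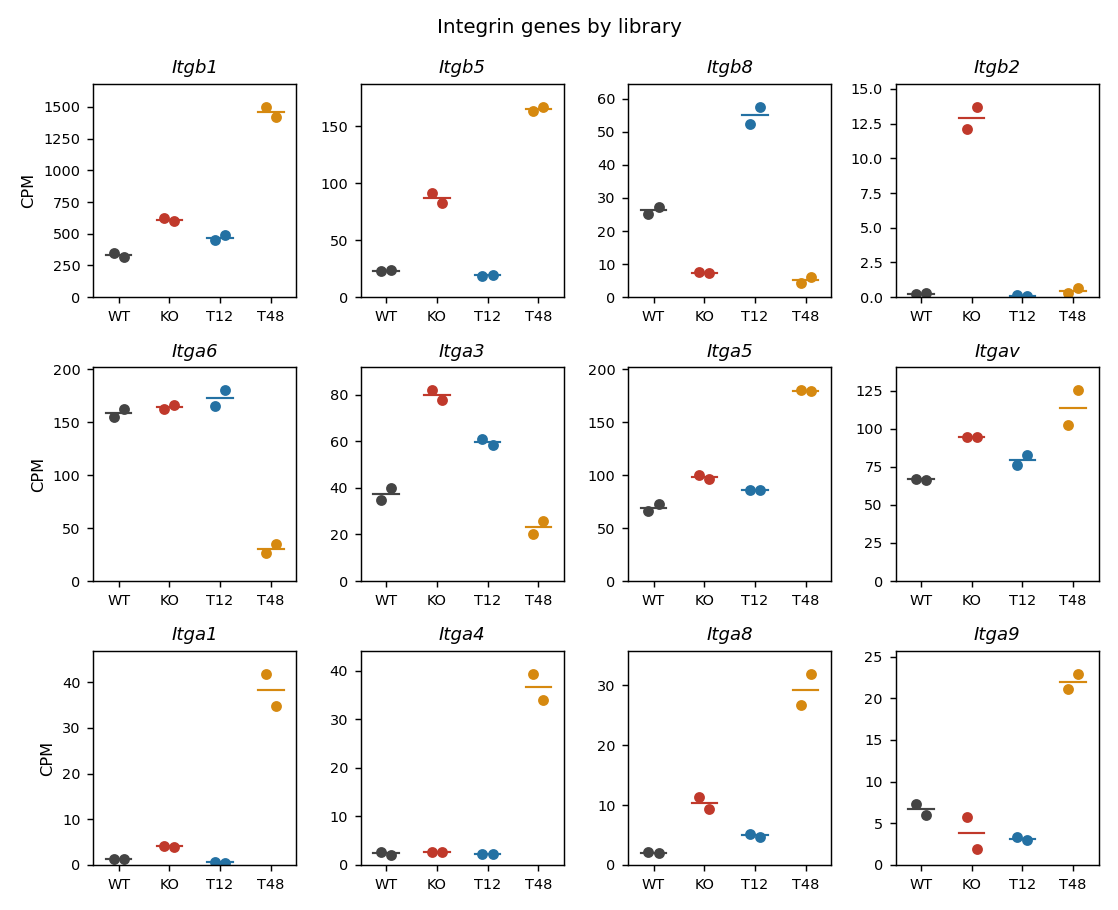
CPM of 12 integrin genes in each of the 8 libraries (points; 2 per group, with T12 the early and T48 the late rescue; bars at the group mean, linear axes from 0, a separate scale per gene). Itgb1, Itgb5, Itga5, Itga1, Itga4, Itga8 and Itga9 are highest in the late rescue, Itga6 and Itga3 are lowest there, Itgb8 is highest in the early rescue and Itgb2 is detected above 1 CPM in the KO only.

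The RGD-binding chains rose in the late rescue, to unequal extents. Itga5 (chr15:103344286-103366763), the fibronectin receptor chain, read 65.9 and 72.6 CPM in WT, 99.6 and 96.3 in KO cells, 85.5 and 85.8 in the early rescue and 180.0 and 179.7 in the late rescue. The late rescue was 1.07 ± 0.08 above the early rescue (adjusted p = 6.8e-08), while the KO exceeded WT by 0.50 ± 0.08. Its small decrease from the KO to the early rescue (-0.19 ± 0.07) was lost in 7 of 20 alternative analyses. Itgav read 67.1 and 66.5 CPM in WT, 94.4 and 94.4 in KO cells, 76.0 and 82.9 in the early rescue and 103 and 125 in the late rescue, a rise of 0.77 ± 0.10 in the late rescue against WT. The difference between the late rescue and the KO (0.27 ± 0.09) was lost in 13 of 20 alternatives and that between the early rescue and the KO (-0.25 ± 0.09) in 6. Itga8, a chain of mesenchyme, had 2.11 and 1.96 CPM in WT, 11.3 and 9.36 in KO cells, 5.16 and 4.69 in the early rescue and 26.7 and 31.9 in the late rescue, with 2.35 ± 0.20 in the KO against WT and 2.57 ± 0.19 between the rescues.

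The β partners of αV went different ways. Itgb5 (chr16:33829665-33949338), a vitronectin receptor chain, read 22.9 and 23.9 CPM in WT, 91.3 and 83.1 in KO cells, 18.7 and 19.9 in the early rescue and 164 and 168 in the late rescue. The 4 early rescue and WT libraries were the lowest, and the late rescue stood 3.10 ± 0.09 above the early rescue (adjusted p = 1.1e-11) and 0.92 ± 0.08 above the KO. Itgb8 (chr12:119158022-119238802), the chain without NPxY motifs that activates latent TGF-β in neural tissue, was the only tested member that was lower past 2-fold in the KO and the only one higher past 2-fold in the early rescue against the KO. It read 25.3 and 27.3 CPM in WT, 7.69 and 7.20 in KO cells, 52.2 and 57.6 in the early rescue and 4.25 and 5.98 in the late rescue, so that the groups high in the eye field genes were also the groups high in Itgb8. The part of those cells in its level was not tested. The fold change was -1.82 ± 0.16 in the KO against WT, 2.88 ± 0.16 in the early rescue against the KO and -3.42 ± 0.17 between the rescues (adjusted p = 2.1e-09). The smaller step from the KO to the late rescue, -0.54 ± 0.17, was lost without late rescue library a (-0.35) or with only these 2 groups in the fit. Itgb3 reached at most 4.63 CPM, in the late rescue, and Itgb6 at most 4.37 CPM, in the KO, where it rose against WT by 4.55 ± 0.77.

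The chains Itga1, Itga4, Itga9 and Itga2b were highest in the late rescue. Itga1, a collagen and laminin receptor chain, read 1.39 and 1.28 CPM in WT, 4.23 and 3.99 in KO cells, 0.685 and 0.485 in the early rescue and 41.8 and 34.9 in the late rescue, a difference of 6.01 ± 0.24 between the rescues (adjusted p = 2.1e-10). Itga4, which pairs with Itgb1 to bind Vcam1 and fibronectin, had 2.58 and 2.11 CPM in WT, 2.55 and 2.72 in KO cells, 2.17 and 2.16 in the early rescue and 39.3 and 33.8 in the late rescue. Only comparisons with the late rescue were called for it, at 4.08 ± 0.20 against the early rescue. Its annotated exons share 1124 bases with Cerkl on the other strand. Those of Nid2, Itgav, Itga8, Itga1, Lama2, Itgb4 and Lamc3 share 372 to 685 bases with another gene, and those of Nid1 share 143. In all, 14 members share exon bases with another gene. No strand of counting is stated in the labels, so such reads cannot be told apart. Itga9 read 7.32 and 5.99 CPM in WT, 5.77 and 1.94 in KO cells, 3.31 and 3.00 in the early rescue and 21.1 and 22.9 in the late rescue, where it rose against each other group (2.80 ± 0.36 against the early rescue). The 2 KO libraries of Itga9 differed almost 3-fold, and the sign of the early rescue against the KO, -0.32 ± 0.36 and not called, depended on which of them was kept. Itga2b, the platelet chain, had 0.582 and 0.564 CPM in WT, 1.57 and 3.35 in KO cells, 0.555 and 0.418 in the early rescue and 9.78 and 9.02 in the late rescue (4.26 ± 0.43 between the rescues).

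**Figure D4:**
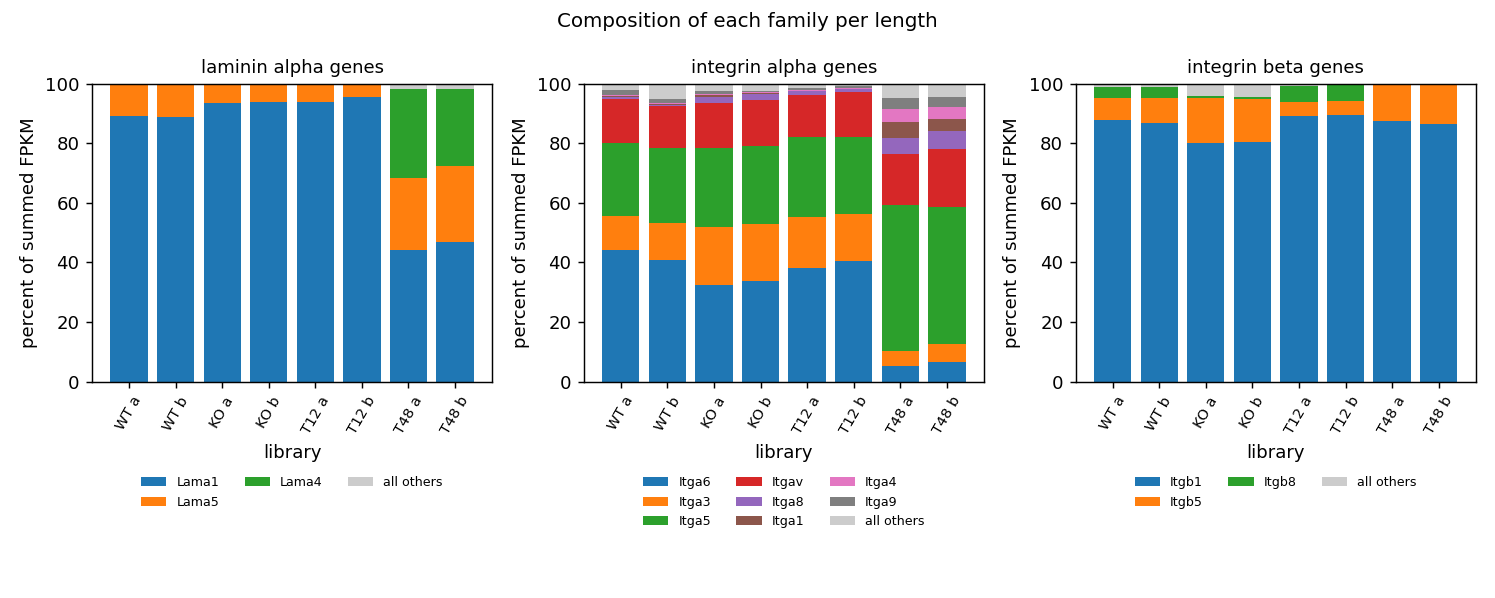
Share of each gene in the summed FPKM of the laminin α, integrin α and integrin β genes (stacked bars, percent) in each of the 8 libraries, with T12 the early and T48 the late rescue. In the late rescue Lama1 falls to 45.5% of the α chains and Itga6 to 5.98% of the integrin α chains, while Itga5 reaches 47.5%.

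Set against all integrin α genes per length, Itga6 held 42.5% ± 2.37 of the summed FPKM in WT, 33.1% ± 0.959 in KO cells, 39.3% ± 1.73 in the early rescue and 5.98% ± 1.01 in the late rescue. Itga5 held 24.8% ± 0.587, 26.3% ± 0.135, 26.3% ± 0.622 and 47.5% ± 2.19 in the same groups, so that by FPKM the fibronectin receptor chain led in the late rescue and the laminin receptor chain in the other 3 groups. On the second length scale Itga5 also led in the KO, at 30.8% ± 0.188 beside 28.2% ± 0.937 for Itga6. WT and the early rescue had the same order on both scales. Itgb1 held 80.3% to 89.3% of the integrin β FPKM in every group. Itgb5 took 14.7% ± 0.601 in KO cells and 12.6% ± 0.642 in the late rescue, against 4.69% ± 0.00425 in the early rescue, in which Itgb8 took 5.40% ± 0.0832. The second scale reversed this order, with 4.29% for Itgb5 and 3.93% for Itgb8. The summed FPKM of the α chains stayed between 53.6 and 78.1 in all libraries, while that of the β chains went from 75.8 and 83.1 in WT to 340.2 and 357.8 in the late rescue.

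The leukocyte chains were low, with 1 exception in the KO. Itgb2 read 0.222 and 0.297 CPM in WT, 12.1 and 13.7 in KO cells, 0.148 and 0.0661 in the early rescue and 0.300 and 0.662 in the late rescue, a rise of 5.63 ± 0.46 in the KO against WT (adjusted p = 2.0e-07). Itgam, an α partner of Itgb2, had 0 counts in WT and in the early rescue, 63 and 30 in the KO and 24 and 22 in the late rescue. Against the 3 counts that a group total of 0 allows, it was at least 20.5-fold higher in the KO than in WT and at least 19.7-fold higher in the late than in the early rescue; its exons share 3450 bases with Gm49368 on the same strand. Itgb7 reached at most 3.03 CPM, in the KO, where it also rose against WT (2.25, not called without WT library a, 1.97). It was lower than the KO in the early (-4.44) and the late rescue (-2.78). Itgal reached at most 1.85 CPM, in the late rescue, where it rose against the early rescue (2.92) and WT (2.41). Both Itgal calls were lost in some alternatives. The pan-leukocyte gene Ptprc was at 0.0844 CPM in the KO and had 0 counts in both rescues, and Pf4 and Elane had 0 counts in every library. The whole list of 14 blood markers summed to 9.32 to 10.6 CPM in WT, 24.6 to 30.2 in KO cells and 63.9 to 67.1 in the late rescue. Of its 9 tested genes 2 rose and 0 fell in the KO against WT (31.7% and 32.4% of all genes). The part of blood cells in the Itgb2 and Itgam levels was not tested.

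The 15 symbols under 5 CPM in every group were Lama3, Lamc3, Itga2, Itga7, Itga10, Itga11, Itgad, Itgae, Itgal, Itgam, Itgax, Itgb2l, Itgb3, Itgb6 and Itgb7. Itga2 had 54 counts in the KO, 1 in the early rescue and 56 in the late rescue, which makes the late rescue 71.8 times the early rescue with a 95% counting interval of 12.4 to 2887. Itga7, Itga10 and the tested locus of Itgae were not called in any comparison. Itga11, Itgad, Itgax, the other Itgae locus and Itgb2l were too low to test. Itgax had 17 and 4 counts in the late rescue and 1 count in all other libraries together, and Itgb2l had 0 counts in all 8.

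The partners of laminin in the basement membrane moved with it in part. There were 26 such genes in the deposited data, of which 24 were tested. In the KO against WT 15 rose and 3 fell (median 0.59), beside 31.7% and 32.4% of all genes. In the early rescue against the KO 5 rose and 16 fell (32.8% and 32.1% of all genes). Between the rescues 11 rose and 11 fell (24.9% and 25.3%). The collagen IV chains Col4a1 (2346 to 9901 CPM from WT to the KO, 2.08 ± 0.07, adjusted p = 8.7e-11) and Col4a2 (1196 to 5806 CPM, 2.28 ± 0.08) rose with the laminin chains, and both lie on chromosome 8. The alternative chain Col4a5 went the other way, from 45.4 CPM in WT to 6.14 in KO cells (-2.87 ± 0.13) and 64.9 in the early rescue, as did Col4a6 in the rescue (1.86 to 24.3 CPM from the KO to the early rescue). In the late rescue Col4a1 and Col4a2 were lower than in the early rescue by 1.97 ± 0.07 and 1.94 ± 0.07, the netrin Ntn1 by 4.63 ± 0.11, and Fbln2, a fibulin that binds laminin and nidogen, was higher by 4.33 ± 0.12.

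Among 22 tested integrin ligands outside the basement membrane, 11 rose and 7 fell in the KO against WT (median 1.08), beside 31.7% and 32.4% of all genes. Between the rescues 10 rose and 7 fell (24.9% and 25.3% of all genes). Cdh1, the E-cadherin that the integrin of Itgae and Itgb7 binds, went from 58.8 CPM in WT to 959.6 in KO cells (4.03 ± 0.12) and 65.4 in the early rescue. Fn1, the fibronectin gene, went from 449 CPM in the early rescue to 2246 in the late rescue (2.32 ± 0.07, adjusted p = 1.5e-11), beside its receptor chains Itga5 and Itgb1. Tnc, a tenascin bound by Itga9 and Itga8 chains, rose by 7.37 ± 0.22 to 55.5 CPM, and Thbs1 fell from 259.9 to 34.2 CPM.

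The 34 genes of the cytoplasmic side of adhesions, all tested, had 22 higher and 6 lower in the KO against WT (median 0.46). Between the rescues 23 were higher and 4 lower. Over all genes the shares were 31.7% and 32.4% in the KO against WT and 24.9% and 25.3% between the rescues. Fermt1, a kindlin of epithelia, which binds NPxY tails, went from 1.65 CPM in WT to 53.0 in KO cells (5.00 ± 0.20) and 1.67 in the early rescue. Ptk2b, a focal adhesion kinase family member, rose by 4.50 ± 0.21 in the KO, and Tln2, a talin, by 1.47 ± 0.09 in the late against the early rescue. Of 24 tested genes of dystroglycan glycosylation and its complex, 7 rose and 8 fell in the KO against WT (median -0.21), and 6 rose and 6 fell between the rescues. These counts lie near the shares over all genes. Dtna, the dystrobrevin of the dystroglycan complex, fell with Dag1 in the KO, from 102 to 12.4 CPM (-3.03 ± 0.12), and returned to 112 in the early rescue, but it was at 2.09 CPM in the late rescue, where Dag1 read 319 and 345. Among 25 proteases and crosslinking genes tested, 9 rose and 8 fell in the KO against WT (median -0.08), which is near the shares over all genes. Between the rescues 12 rose and 5 fell, led by Mmp2, a gelatinase that cleaves collagen IV (82.2 to 443 CPM from the early to the late rescue).

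Markers of other cell types moved with these genes. In bulk RNA, fewer cells of a type and less RNA per cell cannot be told apart. Of 21 endoderm markers, which include genes of the parietal endoderm that secretes laminin and share Dab2 with the adhesion genes above, 20 were tested. In the KO against WT 17 of them rose and 2 fell, beside 31.7% and 32.4% of all genes. Their summed level was 839 to 857 CPM in WT, 2869 to 2941 in KO cells, 915 to 1066 in the early rescue and 2545 to 2585 in the late rescue, in which the main laminin chains were lowest. Of the 20 tested endoderm markers, 10 were higher and 5 lower in the late than in the early rescue (24.9% and 25.3% of all genes). Against WT the late rescue had 11 of them higher and 3 lower (23.9% and 23.4%). Compared with the KO, 7 of them were higher and 13 lower in the late rescue (34.2% and 33.2% of all genes). Past 2-fold as well, 4 were higher and 9 lower (16% and 20.8%), with a median log2 fold change of -0.88 over the tested markers. Sox17, a defining gene, did not follow the sum in the late rescue. It read 19.97 CPM in WT, 149 in KO cells, 29.1 in the early rescue and 24.7 in the late rescue. Pthlh alone was at 0 in a group, the early rescue. All 8 pluripotency markers rose in the KO against WT too, where 31.7% of all genes rose. They summed to 125 to 128 CPM in WT, 678 to 680 in KO cells, 50.3 to 56.3 in the early rescue and 47.7 to 52.8 in the late rescue. The part of either set of cells in the laminin levels of the KO was not tested.

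In the late rescue, all 12 endothelial and all 8 cardiac muscle markers rose against the early rescue, as did 8 of 9 tested fibroblast markers. Over all genes 24.9% rose in that comparison. The endothelial sum was 115 to 122 CPM in WT, 268 to 286 in KO cells, 188 to 197 in the early rescue and 883 to 901 in the late rescue, with Emcn at 0 in the KO. The cardiac sum was 11.7 to 12.1 CPM in WT, 38.3 to 50.2 in KO cells, 7.24 to 9.03 in the early rescue and 1111 to 1180 in the late rescue, with no marker at 0 in any group. The fibroblast sum was 135 to 141 CPM in WT, 34.1 to 34.5 in KO cells, 169 to 196 in the early rescue and 1339 to 1361 in the late rescue, with S100a4 at 0 in WT, Fap at 0 in the KO and both rescues and Dcn at 0 in the early rescue. These sums were highest in the libraries in which Lama4, Lama2, Itga1, Itga4, Itga8, Itga9, Itga2b and Itgb1 were highest, and their part in those levels was not tested. Blood markers, 9 of 14 of them tested, summed to 9.32 to 10.6 CPM in WT, 24.6 to 30.2 in KO cells, 7.49 to 18.1 in the early rescue and 63.9 to 67.1 in the late rescue, where Tal1 alone gave 52.7 CPM. Of them Pf4 and Elane were at 0 in every group, Gp9 in the KO and both rescues, Ptprc in both rescues and Mpo in the early rescue.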

How the data were processed

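The 16 samples were 4 groups of 2 biological duplicates with 2 technical runs each, per the labels. The tools named are Cufflinks 2.2.1, TopHat2 2.1.1, deepTools and SAMtools 1.5, with build mm10, per the submitters' processing notes. Which annotation and which strand were counted is not given in the sources used here. Per the file headers, the authors deposited estimated counts of fragments per locus and, in a second table, FPKM. The count columns had been multiplied by 1 factor each, which was divided out (1 fragment was worth 0.630 to 1.29). Of the values above 0, 90.9% to 92.0% were whole multiples within 0.02 fragments (93.2% to 94.1% with values of 0 counted). The factor was chosen by the share of values above 0 that it made whole. Column names hold the group and a number from 1 to 4 that no label ties to a run or replicate, so technical columns were paired by a chi-square of counts (mean per degree of freedom 1.62 to 1.85 within pairs, 9.54 to 17.4 between), summed and rounded to 8 libraries. The 5143 unnamed loci (3.16% to 6.12% of counts) and 7 named loci marked as holding too many fragments were left out. The 112 companion columns of the tables were not tested.

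The test was that of edgeR 4.0.16 under R 4.3.3 (TMM, filterByExpr, quasi-likelihood F-test, a single model of the 4 groups, Benjamini-Hochberg over 16130 genes, adjusted p under 0.05; common biological coefficient of variation 12.6%), after the procedure was tested on simulated data. Shares and rank per length use FPKM, and intervals and floors (3 counts per group) cover counting error only. Alternatives were RLE and upper-quartile scaling, no filter, DESeq2 1.42.0, limma 3.58.1 (voom, log2(FPKM + 1), log2(FPKM + 0.1)), only the groups compared, 1 technical column, leaving out chromosome 8 or loci of several names, leaving out each library and, added after seeing the data, a replicate block. Members at 5 CPM or more in a group are described singly, the others by range; of each further list, up to 4 members with the smallest adjusted p in a comparison, and defining or 0-count markers, are named. Values of 1 member are not reported here. Members and gene lists were chosen with earlier results of these data known. Gene positions and the printed coding ends come from GENCODE M21 (mm10).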

Additional observations from a re-analysis of the deposited data

Results flagged for a closer look

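In 9 members the early and the late rescue moved away from the KO in opposite directions, each past the threshold, and differed from each other in edgeR's test (adjusted p under 0.05). The log2 fold change of the late against the early rescue was 6.22 for Lama4, 6.01 for Itga1, 4.26 for Itga2b, 3.10 for Itgb5, 2.57 for Itga8, 1.64 for Itgb1, 1.07 for Itga5 and 0.52 for Itgav, all lower than the KO in the early rescue and higher in the late rescue, and -3.42 for Itgb8, which went the other way. For Itgav, Itga5 and Itgb8 the step from the KO was lost in some alternatives, as given beside their values. Groups of 2 libraries are too small to look for single outlying samples.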

How the results depend on the processing

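The column names carry numbers from 1 to 4 that no label ties to a replicate. A replicate block on these numbers, columns 1 and 2 of each group against 3 and 4, was chosen after seeing the data. It left 3 residual degrees of freedom and called 29 members in KO against WT, 29 in early rescue against KO, 30 in late rescue against KO, 30 in late against early rescue, 10 in early rescue against WT and 26 in late rescue against WT. Under the block the calls of Itgb7 in early rescue against WT and Itgal in late rescue against WT were lost, and Itga9 in KO against WT (-0.83) and Itgb3 in late rescue against WT (1.29) were gained. Between groups, the correlation across genes of library a minus b ran from -0.09 to 0.11. It covers all tested genes, those with low counts included, and a shared batch was not tested further. Over 20 alternatives, 4519 of 4666 recomputed member fold changes stayed on their side of the threshold, 87 calls were lost and 59 gained, and 133 of 154 called fold changes kept the call in every alternative. The value of 1 result changed sign past the threshold: Itga9 in the early rescue against the KO ranged from -0.86 to 0.71 when 1 library at a time was left out, with 0.71 (adjusted p = 0.0328) without KO library a. The number of all genes called in early rescue against WT, 2263, ranged from 1074 (without WT library a) to 2569 when libraries were left out, with 1217 without early rescue library a and 1315 without early rescue library b; such a fit has fewer samples in the arm. The members called ranged over all alternatives from 27 to 30 in KO against WT, 25 to 30 in early rescue against KO, 28 to 31 in late rescue against KO, 25 to 30 in late against early rescue, 8 to 16 in early rescue against WT and 24 to 27 in late rescue against WT. Upper-quartile scaling moved the median of all genes to -0.15 in late rescue against KO, -0.12 in late against early rescue and -0.16 in late rescue against WT, and all genes called then split into 4717 higher and 6139 lower, 3440 and 4746, and 3054 and 4794. Depth limits the members with few counts. Among them, Itgam, Itga2, Lamc3, Itgal, Lama3, Itgb7 and Itgb3 rest on at most 347 counts per group.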
